A study of Mus musculus with 6 samples.

Results

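The 10 genes described here are markers of macrophages that arise from blood monocytes and of the macrophages found in liver scar tissue: Trem2, Gpnmb, Cd68, Lyz2, Ly6c2, Csf1r, Mpeg1, Ms4a7, Plac8 and F13a1. They were taken by symbol from a table of 34745 genes, where each had a single row. RNA came from mouse liver sinusoidal endothelial cells (LSECs), the cells that line the liver's blood spaces. The mice were Tgfbr2f/f (f/f), which carry a floxed allele of the gene for the type II TGF-beta receptor, or Tgfbr2 ECKO (ECKO), in which that gene is knocked out in endothelium. Both groups received CCl4, a liver toxin that produces fibrosis, for 6 weeks by injection into the peritoneum, and no group without CCl4 was analysed here. Each group had 3 libraries. The sources used here do not give the promoter driving the deletion, the age and sex of the mice, the way the cells were isolated or whether a library came from 1 mouse, so p-values measure the spread between these libraries.

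Monocytes that enter an injured liver lose their monocyte genes and become macrophages, while Kupffer cells are the resident macrophages attached to the sinusoid wall. In fibrotic liver a part of the monocyte-derived macrophages gathers along scars and expresses TREM2 and GPNMB, and these cells take up lipid and debris. Growth and survival of both kinds of macrophage depend on CSF1R, the receptor for the growth factors CSF1 and IL-34.

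The shallowest library held 17171850 counts and the deepest 25062755. Levels are given as TMM-scaled CPM, the count relative to the effective size of its library. A gene with no count could still be present at up to 3 counts, or 0.124 to 0.200 CPM depending on the library, for counting error only. Transcripts of the mitochondrial genome took 11.5% to 23.5% of counts in f/f and 19.7% to 32.4% in ECKO. Tgfbr2 itself was at 387, 442 and 452 CPM in f/f and 498, 487 and 511 CPM in the libraries labelled ECKO, a log2 fold change of 0.22 (SE 0.10; edgeR adjusted p = 0.228) that turned to -0.025 under total count scaling. Its level thus gives no check of the labels, and every direction below is that of libraries labelled ECKO. Gene counts include a transcript that lacks only a deleted exon, so they do not check the deletion. The 12 listed genes of sinusoidal endothelium, such as the scavenger receptors Stab1 and Stab2, summed to 24925 to 28797 CPM in f/f and 28103 to 32515 CPM in ECKO. The 10 macrophage markers summed to only 68.8 to 182 CPM and 60.8 to 69.9 CPM in the same libraries.

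The stretches before the starts of 4 members are shown because these were the tested members whose f/f and ECKO libraries did not overlap. Each is the 250 bases before a RefSeq start (GRCm38.p6), read 5′ to 3′ on the gene's strand, and capitals mark GAGGAA on either strand, the core of many sites of the myeloid transcription factor PU.1. For Ly6c2 the first of its starts is shown.
Trem2, chr17:48346151-48346400, plus strand: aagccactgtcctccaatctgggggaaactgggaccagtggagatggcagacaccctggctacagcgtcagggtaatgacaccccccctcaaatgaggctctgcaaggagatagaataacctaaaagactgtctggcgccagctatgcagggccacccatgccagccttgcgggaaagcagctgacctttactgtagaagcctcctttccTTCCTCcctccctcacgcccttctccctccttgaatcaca
Gpnmb, chr6:49036268-49036517, plus strand: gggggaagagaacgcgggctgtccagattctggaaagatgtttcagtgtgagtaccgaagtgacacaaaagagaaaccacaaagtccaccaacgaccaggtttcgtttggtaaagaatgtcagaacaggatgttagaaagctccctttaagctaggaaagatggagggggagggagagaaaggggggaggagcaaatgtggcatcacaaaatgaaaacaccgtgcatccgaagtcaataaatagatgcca
Cd68, chr11:69666171-69666420, minus strand: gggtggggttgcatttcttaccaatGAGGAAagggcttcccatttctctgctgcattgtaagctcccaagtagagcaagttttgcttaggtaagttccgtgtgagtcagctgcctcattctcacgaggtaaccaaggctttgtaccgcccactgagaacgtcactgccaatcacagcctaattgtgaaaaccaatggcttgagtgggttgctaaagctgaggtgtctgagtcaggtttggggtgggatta
Ly6c2, chr15:75111972-75112221, minus strand: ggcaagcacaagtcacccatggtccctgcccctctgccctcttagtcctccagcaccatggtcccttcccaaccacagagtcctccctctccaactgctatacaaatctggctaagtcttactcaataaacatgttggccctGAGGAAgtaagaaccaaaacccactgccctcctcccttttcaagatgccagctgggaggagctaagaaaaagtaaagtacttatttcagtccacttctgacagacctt
The match lies 40 bases before the start in Trem2, where it is on the opposite strand, 225 bases before it in Cd68 and 108 bases before it in Ly6c2. The Gpnmb stretch holds no match. RefSeq starts were matched for 9 of the 10 members, all but Csf1r, with 13 windows in all. GAGGAA was present in 6 of the 13 windows, against 23.3% of all 32851 windows of this length. The Ly6c2 windows overlap, so the match shown above is counted in both. By member, 5 of the 9 had a match in at least 1 window, a count that the share per window does not measure. CACGTG and CATGTG, E-box sequences bound by factors such as MITF and TFEB, were in none of the 13 windows, against 6.02% and 12.3% of all windows. These counts describe letters in short windows and say nothing on binding.

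In ECKO, 0 of the 8 members that could be tested passed an adjusted p of 0.05 in either direction by edgeR's quasi-likelihood test, while 5 had an unadjusted p under 0.05, all with lower values in ECKO. Over all 13692 genes tested, 4.03% were called, 2.79% lower and 1.24% higher, and 13.1% were lower at an unadjusted p under 0.05. DESeq2 called 5 of the 8 lower (Trem2, Gpnmb, Cd68, Lyz2 and Ly6c2), with 7.58% of all genes called lower by that tool, and limma-voom called 0. All 8 log2 fold changes were below 0, as were 48.6% of those of all genes. They ran from -4.02 for Trem2 to -0.44 for Plac8 with a median of -1.35, beside a median of 0.01 over all genes. Trem2, Gpnmb, Cd68, Lyz2 and Ly6c2 were at -1 or below, where 8.1% of all genes lay. Trem2 and Ly6c2 passed the filter on low counts only through their f/f libraries, so their fold changes had to be of some size, and Ms4a7 and F13a1 did not pass it. In bulk RNA of LSECs, fewer macrophages in the preparation and less of a transcript per cell cannot be told apart. These levels do not measure macrophages in the liver itself. The part of endothelial cells in these transcripts was not tested.

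**Figure D1:**
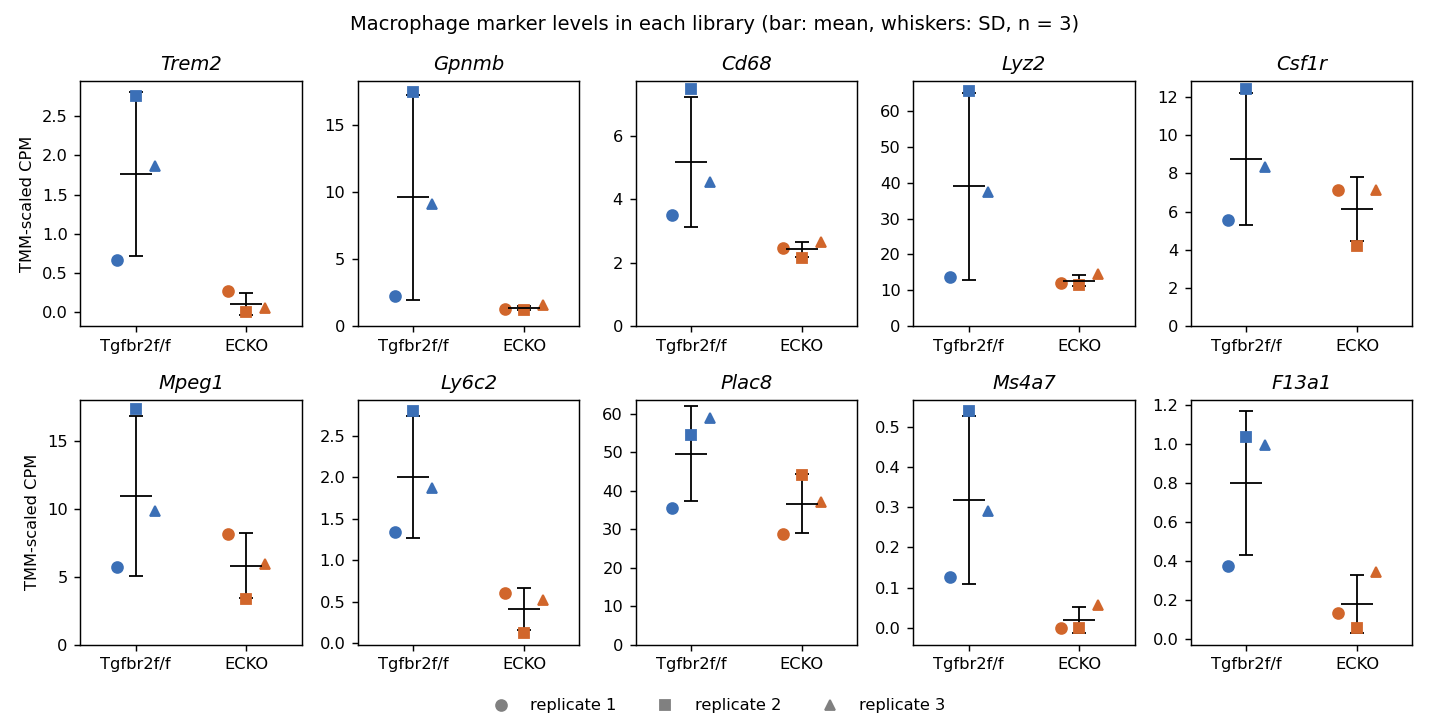
TMM-scaled CPM (vertical axes, linear) of each of the 10 members in the 3 Tgfbr2f/f and 3 ECKO libraries. Marker shapes give the replicate number, horizontal bars the mean and whiskers the SD (n = 3). Replicate 1 is the lowest f/f library in every panel, and the Trem2, Gpnmb, Cd68, Ly6c2, Ms4a7 and F13a1 panels show no overlap between groups.

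Among the genes of scar macrophages, Trem2 encodes a lipid-sensing receptor of macrophages (chromosome 17, 48346401 to 48354147 on mm10/GRCm38, plus strand). It had 16, 56 and 45 counts in f/f (0.669, 2.75 and 1.86 CPM) and 4, 0 and 1 counts in ECKO (0.266, 0 and 0.0573 CPM). Every ECKO library lay below every f/f library, and f/f replicate 2 was the highest. The f/f mean was 1.76 ± 1.04 CPM and the ECKO mean 0.108 ± 0.140 CPM (SD, n = 3 in both). On the log2 scale edgeR put the difference at -4.02 (SE 0.90; adjusted p = 0.0529), a value that depends on its prior count because ECKO had so few reads. Of the 13692 genes, 9 had a lower fold change. That rank carries little weight, because the low-count filter kept Trem2 only through f/f and the prior count enters its fold change. Without ECKO replicate 1, which held 4 of the 5 ECKO counts, the value was -5.65 (adjusted p = 0.0990), and with the low-count filter off Trem2 passed (adjusted p = 0.0281).

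Gpnmb encodes a transmembrane glycoprotein of lysosomes in lipid-loaded macrophages (chromosome 6, 49036546 to 49070929, plus strand). Its counts were 53, 355 and 220 in f/f and 19, 21 and 27 in ECKO, or 2.22, 17.4 and 9.11 CPM against 1.26, 1.22 and 1.55 CPM. The ECKO libraries were close to each other, whereas f/f replicate 2 was 7.87 times f/f replicate 1. The f/f mean of 9.59 ± 7.62 CPM stood against 1.34 ± 0.178 CPM in ECKO (log2 fold change -2.82, SE 0.72, edgeR adjusted p = 0.0794). The lowest f/f library was still above the highest ECKO library. Without f/f replicate 1 the value was -3.28 (adjusted p = 0.00481) and without f/f replicate 2 it was -2.07 (adjusted p = 0.124).

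Ms4a7, a membrane-spanning gene of macrophages outside the Kupffer cell compartment (chromosome 19, 11321039 to 11336146, minus strand), was too low to be tested. It had 3, 11 and 7 counts in f/f and 0, 0 and 1 in ECKO. Scaled for library size, the ECKO total was 6.56% of the f/f total, with an exact 95% counting interval of 0.159% to 40.8% from the conditional binomial. That interval leaves out the spread between libraries, where f/f replicate 2 again stood highest.

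The general macrophage genes had fold changes nearer to 0. Cd68, a lysosomal glycoprotein (chromosome 11, 69664213 to 69666153, minus strand), had 84, 152 and 110 counts in f/f and 37, 37 and 46 in ECKO. In CPM these were 3.51, 7.47 and 4.56 against 2.46, 2.15 and 2.64. The groups did not overlap, and the ECKO libraries lay within a narrow band. Cd68 averaged 5.18 ± 2.05 CPM in f/f against 2.42 ± 0.247 CPM in ECKO (log2 fold change -1.09, SE 0.32, edgeR adjusted p = 0.0978). Leaving out f/f replicate 1 brought it past the threshold (adjusted p = 0.0398), as did total count scaling (adjusted p = 0.0387), and without f/f replicate 2 its log2 fold change was -0.74 (adjusted p = 0.208).

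Lyz2, the lysozyme of monocytes, macrophages and neutrophils (chromosome 10, 117277334 to 117282274, minus strand), was at 13.8, 65.7 and 37.5 CPM in f/f and 12.1, 11.5 and 14.5 CPM in ECKO. The f/f replicate 1 value fell between the ECKO values, so the groups overlapped. The log2 fold change was -1.61 (SE 0.52; edgeR adjusted p = 0.132) on all libraries, -2.01 without f/f replicate 1 (adjusted p = 0.00799) and -1.02 without f/f replicate 2 (adjusted p = 0.237). Of the 50-base stretches in annotated Lyz2 transcripts, 15.4% also occur in Lyz1, a nearby lysozyme gene. Lyz1 had 0, 6 and 4 counts in f/f and 0 in each ECKO library, beside 182 to 1338 counts of Lyz2. The part of shared reads was not tested.

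Csf1r, the CSF1 and IL-34 receptor (chromosome 18, 61105572 to 61132149, plus strand), was at 5.56, 12.4 and 8.33 CPM in f/f and 7.12, 4.18 and 7.11 CPM in ECKO. These ranges overlapped, with f/f replicate 1 below both ECKO replicates 1 and 3. Its log2 fold change was -0.51 (SE 0.33; edgeR adjusted p = 0.386). Without f/f replicate 2 it was -0.19 (adjusted p = 0.766), without ECKO replicate 2 it was -0.29 (adjusted p = 0.645), and no alternative called it. A gene on the opposite strand, Hmgxb3, overlaps Csf1r in GENCODE M21, and the sources used here do not say whether counting used strand.

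Mpeg1, which encodes the pore-forming perforin-2 of macrophages (chromosome 19, 12460779 to 12465284, plus strand), was at 5.73, 17.3 and 9.82 CPM in f/f and 8.12, 3.37 and 5.96 CPM in ECKO. As with Csf1r, f/f replicate 1 lay within the ECKO range and ECKO replicate 2 was the lowest of all. The log2 fold change was -0.91 (SE 0.46; edgeR adjusted p = 0.279), and -0.43 without f/f replicate 2 (adjusted p = 0.576). The value was -0.63 without ECKO replicate 2 (adjusted p = 0.488).

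Among the monocyte genes, Ly6c2 encodes the surface antigen Ly6C of inflammatory monocytes (chromosome 15, 75108158 to 75111970, minus strand). It had 32, 57 and 45 counts in f/f and 9, 2 and 9 in ECKO, or 1.34, 2.80 and 1.86 CPM against 0.599, 0.116 and 0.516 CPM. No ECKO library reached the lowest f/f library. Ly6c2 averaged 2.00 ± 0.741 CPM in f/f against 0.410 ± 0.258 CPM in ECKO (log2 fold change -2.28, SE 0.56, edgeR adjusted p = 0.0648). Turning off the low-count filter took it past the threshold (adjusted p = 0.0413), as did total count scaling (adjusted p = 0.0170) and dropping f/f replicate 1 (adjusted p = 0.0431).

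Ly6c2 can exchange reads with Ly6c1, a close relative that endothelial cells express: 13.9% of the 50-base stretches of Ly6c2 transcripts also occur in Ly6c1. Ly6c1 was at 8.45, 11.7 and 14.5 CPM in f/f and 6.79, 8.13 and 5.96 CPM in ECKO (log2 fold change -0.73, SE 0.23, edgeR adjusted p = 0.115). The Ly6c2 count was 15.8%, 23.8% and 12.8% of the Ly6c1 count in f/f and 8.82%, 1.43% and 8.65% in ECKO. Each ECKO percentage was below every f/f percentage. How far read exchange enters the Ly6c2 counts was not tested.

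F13a1, the coagulation factor XIII A chain of monocytes and tissue macrophages (chromosome 13, 36867178 to 37050244, minus strand), had 9, 21 and 24 counts in f/f and 2, 1 and 6 in ECKO, below the filter. The scaled ECKO total was 23.0% of the f/f total (exact 95% counting interval 9.96% to 46.9%, conditional binomial). The groups did not overlap, although f/f replicate 1 at 0.376 CPM and ECKO replicate 3 at 0.344 CPM were close. With the filter off the log2 fold change was -2.10 (edgeR adjusted p = 0.139).

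Plac8 encodes a small cysteine-rich protein of monocytes and several other leukocytes (chromosome 5, 100553725 to 100572245, minus strand). It was at 35.5, 54.5 and 58.8 CPM in f/f and 28.7, 44.0 and 37.2 CPM in ECKO, the only member with f/f replicate 3 highest. The groups overlapped and the log2 fold change was the smallest of the 8 (-0.44, SE 0.22, edgeR adjusted p = 0.282), with values from -0.62 to -0.28 when each library was left out.

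**Figure D2:**
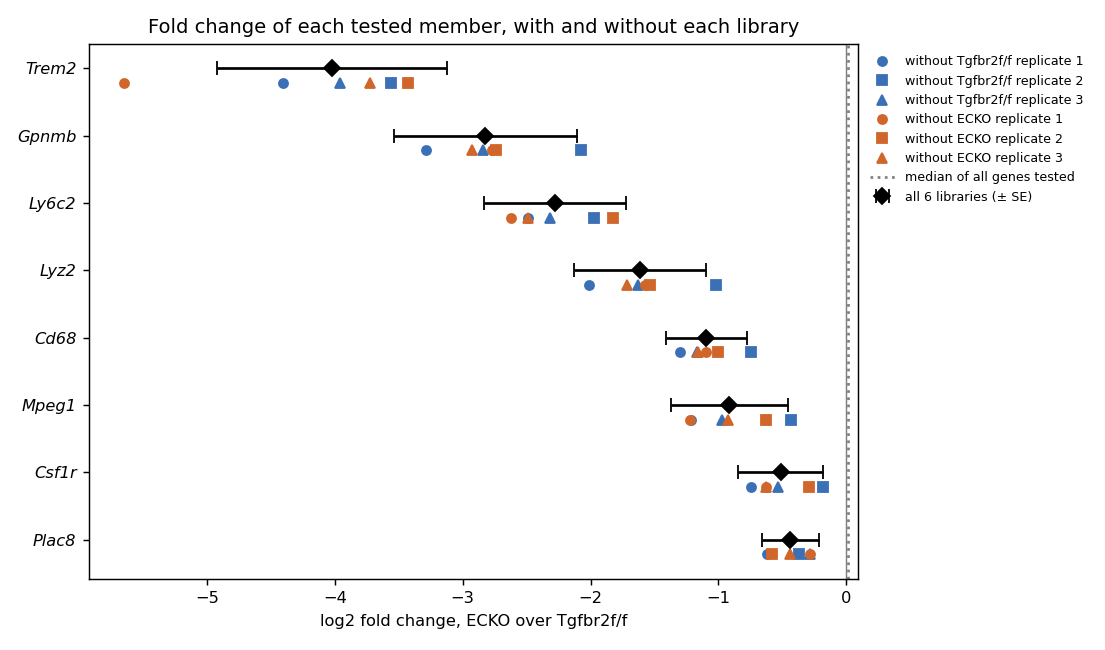
Log2 fold change (ECKO over Tgfbr2f/f, horizontal axis) of the 8 tested members with all 6 libraries (black diamonds, whiskers ± SE) and without each library in turn (coloured markers). Every value is below 0. Leaving out f/f replicate 2 brings Gpnmb, Lyz2, Cd68, Mpeg1 and Csf1r nearest to 0, to -2.07, -1.02, -0.74, -0.43 and -0.19.

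Across the members, f/f replicate 2 was the highest of all 6 libraries for 9 of 10, and f/f replicate 1 was the lowest f/f library for all 10. ECKO replicate 2 held the lowest level of the ECKO group, ties included, for 9 of 10. Without f/f replicate 1, 9 members could be tested, F13a1 among them, and edgeR called 5 of the 9 lower (Gpnmb, Ly6c2, Lyz2, Trem2 and Cd68), with 5.47% of all genes called lower. With any other single library left out it called 0. The ECKO libraries of 6 of the 10 members lay wholly below the f/f libraries (Trem2, Gpnmb, Cd68, Ly6c2, Ms4a7 and F13a1). Of the 8 tested, 4 did so, against 15.2% of all genes tested; Trem2 and Ly6c2 among these were kept by the filter only through f/f. The f/f library with the lowest marker level, replicate 1, also had the highest mitochondrial share of its group, 23.5% against 14.2% and 11.5%. The part of this in the marker levels was not tested.

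**Figure D3:**
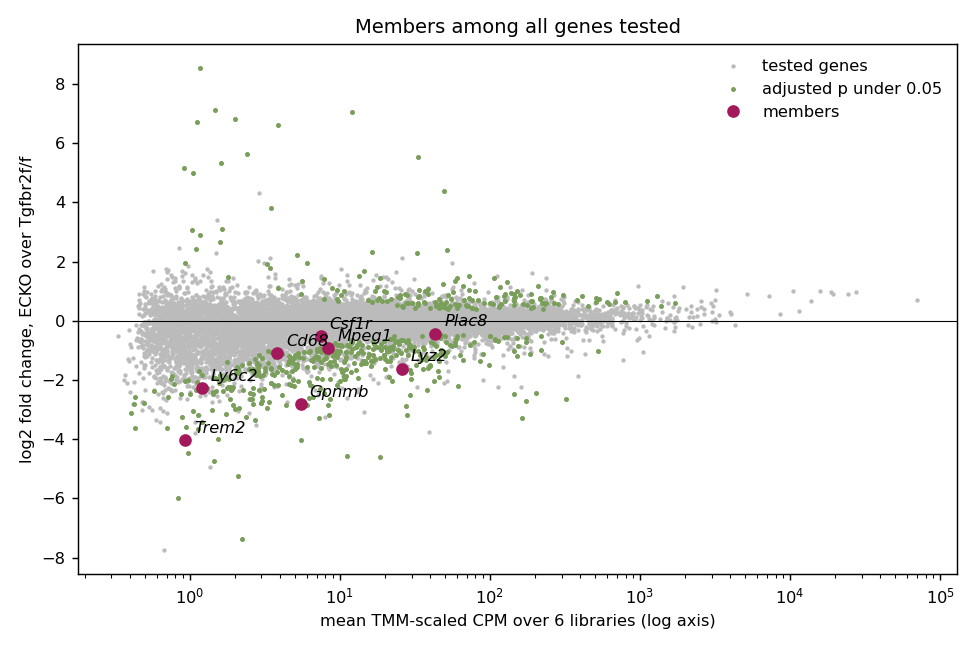
Mean TMM-scaled CPM over 6 libraries (horizontal, log axis) against log2 fold change (ECKO over Tgfbr2f/f) for 13692 tested genes in grey, those with an edgeR adjusted p under 0.05 in green and the 8 tested members in purple. All 8 members lie below 0, from Plac8 at -0.44 to Trem2 at -4.02, and none is among the called genes.

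Per unit of length, the members covered a wide range. In the authors' FPKM (fragments relative to gene length and library size), f/f levels were highest for Lyz2 at 34.9 ± 24.8 and Plac8 at 22.4 ± 7.52 FPKM, whose ranges overlapped. A gap separated Plac8 from Mpeg1 (2.83 ± 1.69 FPKM), Cd68 (2.78 ± 1.29 FPKM), Csf1r (1.67 ± 0.771 FPKM) and Gpnmb (1.46 ± 1.21 FPKM), each of which overlapped its neighbour. Ly6c2, Trem2, F13a1 and Ms4a7 followed at 0.510, 0.325, 0.229 and 0.0647 FPKM, again with overlapping neighbours. In ECKO, Plac8 (13.9 ± 4.11 FPKM) stood above Lyz2 (9.26 ± 1.37 FPKM) with overlap, and Gpnmb (0.166 ± 0.0264 FPKM) was separated from Csf1r above it (0.953 ± 0.215 FPKM) and from Ly6c2 below it (0.0839 ± 0.0496 FPKM). For comparison, the endothelial junction gene Pecam1 was at 138 FPKM in f/f and 167 FPKM in ECKO on average. The gene length behind the FPKM was computed from count, total and FPKM. It was 4361 bases for Ly6c2 and 2067 bases for Cd68, longer than their listed spans of 3813 and 1941 bases. It also exceeded the length of all exons in GENCODE M21 for Plac8 (2459 against 1592 bases) and Trem2 (6119 against 4946 bases). For Lyz2 the lengths were close (1266 against 1316 bases), and for F13a1 it was shorter (3927 against 6739 bases). The FPKM of these genes may thus be set low or high, and the order of members, such as Lyz2 above Plac8 in f/f, depends on the length used. Lyz2 and Plac8 together made up 66.1% to 72.3% of the members' summed CPM in f/f and 67.1% to 83.3% in ECKO, while Trem2 and Gpnmb together took 4.19% to 11.1% and 1.83% to 2.52%.

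Other genes of scar and lipid-associated macrophages were taken from a list of 18, of which 15 were tested. Of these, 2 were lower, 0 higher and 13 did not pass by edgeR's test, with 7 lower and 3 higher at an unadjusted p under 0.05 and a list median of -0.38. The count lower was 6 without f/f replicate 1 and 1 without any other library, and 6 with DESeq2, 5 under total count scaling and 1 with limma-voom. Cd63, a tetraspanin of lysosomes and exosomes, averaged 47.2 ± 5.29 CPM in f/f and 16.8 ± 1.69 CPM in ECKO and fell by 1.49 in log2 terms (SE 0.13, adjusted p = 0.00853). Lpl, lipoprotein lipase, averaged 16.8 ± 7.73 and 4.56 ± 0.540 CPM and fell by 1.88 (SE 0.38; adjusted p = 0.0419). With single libraries left out Cd63 was called in 6 of 6 fits and Lpl in 1, that without f/f replicate 1. Both are made by many cell types. Mmp12, the macrophage elastase, had 19, 97 and 57 counts in f/f and 0, 4 and 0 in ECKO (log2 fold change -4.93, SE 1.08, adjusted p = 0.0535), so f/f replicate 2 was highest here too. As with Trem2, the low-count filter kept Mmp12 only through f/f, and its fold change depends on the prior count. Lgals3, galectin-3, had a log2 fold change of -1.30 (adjusted p = 0.114). The 3 with higher values are named after these were seen. The folate receptor gene Folr2, which is also a gene of resident macrophages, had a log2 fold change of 1.13 (edgeR adjusted p = 0.115). The others were the lipid droplet gene Plin2 (0.25, adjusted p = 0.175) and the tetraspanin gene Cd9 (0.49, adjusted p = 0.184). The abundant Ctsb, Ctsd and Apoe kept the list's sum at 4890 to 5437 CPM in f/f and 4563 to 5624 CPM in ECKO, and these 3 overlapped between groups.

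Of 18 monocyte genes, not all of them particular to classical monocytes, 13 were tested (median -0.63). At an unadjusted edgeR p under 0.05, 5 were lower. After adjustment 1 was lower, 0 higher and 12 did not pass. The 1 was Nr4a1, an immediate early nuclear receptor also made outside monocytes, which fell by 1.59 on the log2 scale (58.3 ± 6.53 CPM in f/f, 19.3 ± 8.27 CPM in ECKO; SE 0.29, edgeR adjusted p = 0.0337). The list's count lower was 3 without f/f replicate 1, 1 without ECKO replicate 3 and 0 without any other library, and 3 under total count scaling or with DESeq2. Napsa, Vcan and Cd14 had log2 fold changes of -2.13, -1.75 and -0.63 (edgeR adjusted p = 0.0826, 0.120 and 0.207). Napsa and Vcan had 3 and 5 counts in ECKO replicate 2 and passed the low-count filter only through f/f. Itgam, the CD11b integrin chain of myeloid cells, was too low for the test and is named after its values were seen: it had 6, 62 and 27 counts in f/f and 0, 0 and 1 in ECKO. Ccr2, the chemokine receptor that draws monocytes from blood, is named likewise, with 14, 15 and 14 counts in f/f and 20, 5 and 7 in ECKO (log2 fold change 0.06, adjusted p = 0.957), and its groups overlapped.

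The list of signalling partners and regulators of the members held 20 genes, of which 19 were tested, 2 were lower and 17 did not pass (median -0.41). Csf2rb and Csf2ra, the beta and alpha chains of the GM-CSF receptor of myeloid cells, fell by 2.18 and 1.31 on the log2 scale (SE 0.34 and 0.27; edgeR adjusted p = 0.0226 and 0.0433). Csf2rb kept its call only without f/f replicate 1 or 2 among the 6 fits that leave out a library, and Csf2ra lost it in all 6. Csf2rb was at 14.5, 8.45 and 8.04 CPM in f/f and 2.93, 1.45 and 2.47 CPM in ECKO, so f/f replicate 1 was its highest library and not, as for the members, the lowest of its group. Tyrobp, the adaptor through which TREM2 signals, was at 1.51, 5.06 and 3.31 CPM in f/f and 3.00, 1.80 and 2.64 CPM in ECKO, overlapping (log2 fold change -0.41, adjusted p = 0.610). Syk, the kinase downstream of that adaptor, was at 3.01, 7.27 and 5.51 CPM against 2.20, 1.16 and 2.41 CPM, without overlap (log2 fold change -1.45, SE 0.41, adjusted p = 0.0888). Fcer1g, a related adaptor, had values in the other direction, 24.1 ± 4.46 CPM in f/f and 34.3 ± 5.83 CPM in ECKO (log2 fold change 0.51, adjusted p = 0.136).

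Values of the resident macrophage markers lay on both sides of 0. Of 15 Kupffer cell genes, 13 were tested and 0 passed by edgeR in either direction; at an unadjusted p under 0.05, 1 was lower (Marco) and 1 higher (Clec4f). DESeq2 called 1, Clec4f, as did edgeR with the low-count filter off (adjusted p = 0.0486), and limma-voom called 0. With a library left out, edgeR called Clec4f without ECKO replicate 2 and 1 lower Kupffer cell gene without f/f replicate 1. Their median was 0.15, which turned to -0.10 under total count scaling and to -0.01 without f/f replicate 1. Clec4f, a lectin specific to Kupffer cells, was at 3.64, 5.31 and 6.09 CPM in f/f and 14.6, 7.09 and 14.3 CPM in ECKO, higher without overlap (log2 fold change 1.26, SE 0.32, edgeR adjusted p = 0.0711, and 0.97 under total count scaling). Timd4, a receptor for dying cells on long-lived Kupffer cells, had 8, 7 and 6 counts in f/f and 14, 8 and 19 in ECKO and was too low for the test. Marco, a scavenger receptor, averaged 3.18 ± 0.944 CPM in f/f and 1.74 ± 0.527 CPM in ECKO (log2 fold change -0.87, adjusted p = 0.184), and C1qb and Cd163 had values of -0.36 and 1.10 (adjusted p = 0.390 and 0.357). The Gpnmb count was 0.609, 3.29 and 1.5 times the Clec4f count in f/f and 0.0864, 0.172 and 0.108 times in ECKO, so each ECKO library had the smaller ratio. This pair was chosen after its values were seen, and the difference between the lists was not tested.

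**Figure D4:**
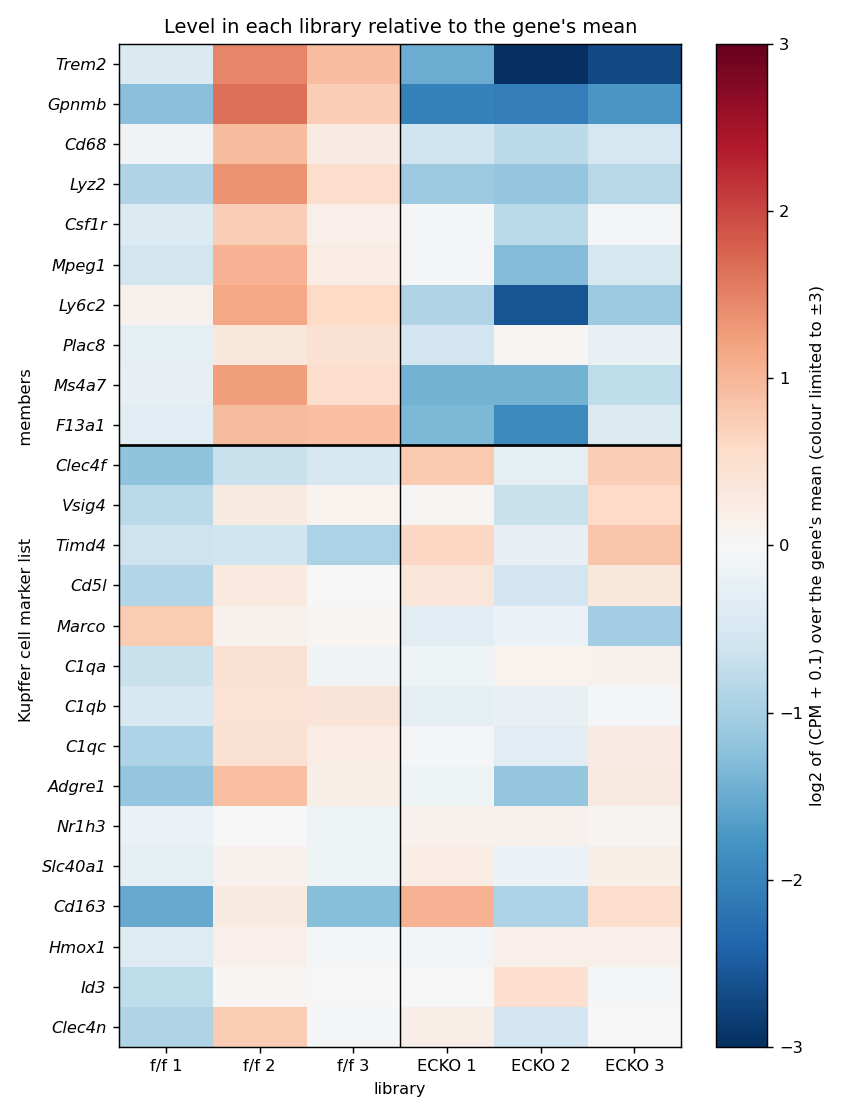
Log2 of CPM + 0.1 over the gene's mean of the same quantity, in each of the 6 libraries (columns), for the 10 members (upper block) and the 15 Kupffer cell genes (lower block); red is above and blue below the mean. The upper block is reddest in f/f replicate 2 for 9 of 10 members, and in the lower block 6 of 15 genes also peak there (C1qa, C1qb, C1qc, Adgre1, Hmox1 and Clec4n), while Clec4f and Timd4 are bluer in f/f than in ECKO replicates 1 and 3.

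Markers of other cells moved in the same libraries. Of 10 pan-leukocyte genes, 1 was lower and 9 did not pass (median -0.80): Lcp1, L-plastin, fell by 0.85 on the log2 scale (SE 0.12; edgeR adjusted p = 0.0163), and Ptprc, CD45, was at 3.85, 6.88 and 7.08 CPM in f/f and 3.40, 2.21 and 2.29 CPM in ECKO (adjusted p = 0.0795). The summed pan-leukocyte level was 204 to 237 CPM in f/f and 180 to 196 CPM in ECKO. Arhgdib alone gave 102 to 120 CPM of it in f/f and 124 to 140 CPM in ECKO, higher without overlap. Lcp1 gave 67.6 to 77.9 CPM and 35.0 to 45.1 CPM, lower without overlap, so the sum says little on the other genes of the list. Of 13 neutrophil genes 4 were tested and 1 was lower: Mpo, myeloperoxidase of granulocyte and monocyte precursors, fell by 3.29 on the log2 scale (SE 0.61; edgeR adjusted p = 0.0374). The neutrophil sum was 15.7 to 27.1 CPM in f/f and 1.98 to 7.39 CPM in ECKO, with the defining marker Ly6g listed at 0 counts in all 6 libraries. Mpo alone gave 8.33 to 18.2 CPM of it in f/f and 0.349 to 2.60 CPM in ECKO. The neutrophil sum thus says little on the other genes of that list. Of 10 B and plasma cell genes 9 were tested and 4 were lower, among them Jchain, Cd79a and Ighm (median -2.26), and the sum was 27.6 to 62.5 CPM against 9.35 to 17.9 CPM. Mpo, Jchain and Cd79a had 6, 6 and 7 counts in ECKO replicate 2 and passed the low-count filter only through f/f. The B and plasma cell count lower was 10 without f/f replicate 1 and 0 without any other library, and 8 with DESeq2 or total count scaling and 0 with limma-voom. Mpo was called in 1 of the 6 fits that leave out a library, that without f/f replicate 1, and Lcp1 in 2, those without f/f replicate 1 or 2; limma-voom did not call Mpo.

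Of 12 stellate cell genes 5 were lower and 0 higher (median -1.0), among them Tcf21, Dcn, Col1a1 and Col3a1, and their sum was 1539 to 2544 CPM in f/f and 606 to 897 CPM in ECKO. The stellate count lower was 7, 2 and 1 when f/f replicates 1, 2 and 3 were left out in turn and 1, 3 and 2 when ECKO replicates 1, 2 and 3 were, and it was 9 under total count scaling and 10 with DESeq2. Of 10 dendritic cell genes 4 were tested: Clec9a rose by 0.75 (SE 0.13; edgeR adjusted p = 0.0307), 3 did not pass, and the sum was 282 to 398 CPM against 290 to 355 CPM. Clec9a lost its call under total count scaling (log2 fold change 0.51, adjusted p = 0.0768) and on FPKM, and kept it in 2 of the 6 fits that leave out a library, those without f/f replicate 1 or ECKO replicate 2. Another gene of the dendritic cell list was called lower under total count scaling. In that list's sum, Zbtb46 alone was at 175 to 239 CPM in f/f and 184 to 191 CPM in ECKO. Tcf4 was at 88.5 to 156 CPM and 73.2 to 135 CPM, and both overlapped between groups. Of 12 T and NK cell genes 3 were tested and 0 passed by edgeR, DESeq2 or limma-voom, with 0 at an unadjusted edgeR p under 0.05 (median -0.29; 11.1 to 14.3 CPM against 8.6 to 13.6 CPM). Of 10 hepatocyte genes 1 was lower, Cyp3a11, a call lost without ECKO replicate 1, with sums of 873 to 1502 CPM and 760 to 1580 CPM. The hepatocyte median of 0.08 had no stable sign: it was -0.10 under total count scaling, -0.25 without ECKO replicate 2, -0.18 without f/f replicate 2 and 0.57 without f/f replicate 1. Of 12 sinusoidal endothelial genes 1 was higher, Pecam1 (median 0.25). Under total count scaling the endothelial median was 0.02 and 0 were called, as with limma-voom and on FPKM, while DESeq2 called 4 higher; Pecam1 was called in 0 of the 6 fits that leave out a library. The part of these other cells in the macrophage marker levels was not tested.

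The 5 other genes whose levels over the 6 libraries followed the mean pattern of the 8 tested members most closely were Enpp1, Myo5a, Ckap2l, Syk and Ror1. Likeness was the root-mean-square distance between centred log2 CPM profiles, which was 0.11 for Enpp1 and 0.16 for each of the other 4. Among the members themselves that distance from their mean was 0.27 for Lyz2, the closest, and 0.94 for Trem2, the farthest. Enpp1, an ectoenzyme that makes pyrophosphate, was at 2.01, 6.53 and 4.23 CPM in f/f and 1.80, 0.988 and 1.26 CPM in ECKO. These genes were chosen for this pattern, so their levels are a description and no test of it is given. Ckap2l is a mitotic spindle protein, Ror1 a receptor tyrosine kinase-like protein and Myo5a an actin motor.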

How the data were processed

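Per the labels' protocols, RNA was checked for integrity, cleaned, treated with DNase and made into mRNA libraries. HISAT2 2.0.4, StringTie 1.3.0 and the builds mm10 and GRCm38.p4 are named, per the submitters' processing notes; counter, strand setting and annotation release: not given in the sources used here. The deposited file gives each library 1 column of raw counts and 1 of the authors' FPKM, per the file headers; 0 columns were left out. Counts were filtered with filterByExpr (minimum count 10, minimum total 15) and TMM-scaled. They were compared by edgeR 4.0.16's quasi-likelihood F-test (R 4.3.3, robust, genotype only, two-sided, Benjamini-Hochberg over all 13692 genes, threshold 0.05). The test was checked on data simulated with the same spread beyond counting error for every gene. That check does not cover genes as variable between libraries as Gpnmb and Lyz2 in f/f. SE is the absolute log2 fold change over the square root of F. Alternatives were DESeq2 1.42.0, limma 3.58.1 (voom, and trend on log2 of the authors' FPKM plus 0.1 or 1), other scalings and filters, a replicate block and each library left out. With 3 against 3, the smallest exact permutation p for 1 value alone is 0.1. The members and 12 marker lists were chosen with earlier results of these data known. Named are the members, Lyz1, Ly6c1, Tgfbr2, up to 4 tested genes with the smallest p in each list, and the 5 genes (mean of at least 1 CPM) nearest to the members' profile (prior count 2). One gene that this rule names is not reported here. Pecam1 serves as a reference level. Genes named outside this rule, such as Hmgxb3, Timd4, C1qa, C1qc, Hmox1, Adgre1, Clec4n, Stab1, Stab2, Ctsb, Ctsd and Apoe, were chosen after their values were seen.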

Additional observations from a re-analysis of the deposited data

How the results depend on the processing

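All 8 tested members kept log2 fold changes below 0 in each of the 17 alternatives run. Their median over the same 8 ranged from -1.66 to -0.67. Over the members each fit could test it reached -2.01, with 9 members, without Tgfbr2f/f replicate 1, and no alternative called a member higher. The number called lower, 0 in the analysis reported, was 3 under total count scaling (Ly6c2, Trem2 and Cd68), 2 without a filter on low counts (Ly6c2 and Trem2), 5 with DESeq2, 2 with limma-trend on log2(FPKM + 0.1) and 1 with log2(FPKM + 1). When single libraries were left out it ranged from 0 to 5, the 5 arising without Tgfbr2f/f replicate 1. Of all genes tested, 2.79% were called lower in the analysis reported, 8.83% under total count scaling and 2.51% without the filter. That share was 7.58% with DESeq2, 5.1% on log2(FPKM + 0.1), 4.02% on log2(FPKM + 1) and 5.47% without Tgfbr2f/f replicate 1. Genes called over all genes were 552, against 1272 under total count scaling, 1508 with DESeq2, 315 with limma-voom and 35 to 1012 with 1 library left out. Falls made up 69.2% of calls, 95% under total count scaling, where the median of all genes was -0.22 in place of 0.01, and 93.4% on FPKM with either pseudocount.

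Same-numbered libraries deviated together at most weakly (r = 0.09, 0.15 and -0.05 for replicates 1, 2 and 3 over 13692 genes). Replicates 1 and 2 of f/f were closest to their own number in ECKO, replicate 1 only by little (0.095 against 0.091 for ECKO replicate 3). Replicate 3 of f/f was farthest from its own number. With the replicate block 416 genes and 0 members were called, and the members' median was -1.20. Under total count scaling, log2(FPKM + 0.1) and log2(FPKM + 1), Tgfbr2 turned from 0.22 to -0.0248, -0.0104 and -0.0105, and Arhgdib, a pan-leukocyte gene, from 0.22 to -0.0169, -0.0202 and -0.0198; the cause was not tested. With 1 library left out, Csf3r ranged from -1.003 to 0.0256, Nkg7 from -1.06 to 0.280 and Tcf4 from -0.404 to 0.180. Depth limits Trem2, Ms4a7, Ly6c2 and F13a1 in ECKO, with at most 9 counts a library.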
